A study of Mus musculus with 6 samples.

Results

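Extracellular proteases and their inhibitors were followed at the RNA level in 4T1 cells, a mouse mammary carcinoma line, with and without added METTL7A1, a putative methyltransferase. The set held 89 of the 48587 genes in the counts table. It comprised all genes whose symbols mark a matrix metalloproteinase (MMP, 23 genes), an ADAM protease (33), an ADAMTS protease (19) or a tissue inhibitor of metalloproteinases (TIMP, 4), and 11 listed genes around plasminogen activation, matriptase and MMP activation. Of the 11, Mmp14 was also among the MMPs. The rule rests on symbols and a list of names and uses no expression value. The set was, however, chosen with earlier results of these data known.

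Both groups were stable 4T1 transfectants grown under G418 selection, with 3 libraries each. The METTL7A1 group (4T1-METTL7A1 cells) carried full-length Mettl7a1 cDNA in the vector pBICEP-CMV-2. The mock group carried the empty vector, as the legends of the study describe it, although the treatment label of the mock libraries repeats the text on Mettl7a1 cDNA. Neither the labels nor the methods state whether a line was 1 clone or a pool, so that differences between lines and an effect of METTL7A1 cannot be told apart, and the replicates may share a line. Library totals lay between 18386780 and 28459338 counts, and a count of 3, used as the detection floor, corresponded to 0.102 to 0.164 cpm, the unit of all levels here (counts relative to the size of their library, scaled by TMM), a limit that covers counting error only. Mettl7a1 itself, the transfected gene, stood at 342, 385 and 422 cpm in METTL7A1 replicates 1, 2 and 3 and at 1.64, 1.24 and 1.17 cpm in mock replicates 1, 2 and 3, so that each library matched its label. The 5 epithelial markers (Epcam, Krt8, Krt18, Cdh1 and Cldn7) summed to 1472 to 1751 cpm in METTL7A1 and 1422 to 1737 cpm in mock libraries. The study asked how METTL7A1 bears on migration and on invasion of matrix, the process in which these proteases act. It reported both as reduced in 4T1-METTL7A1 cells compared with mock cells. Whether the RNA levels given here relate to that was not tested.

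Secreted and membrane-bound proteases cut the matrix around a cell and release growth factors and receptors from its surface. Most are made as inactive zymogens, so that activators such as furin and plasmin, and inhibitors such as TIMPs and serpins, set how much protease works. Tumour cells and the stroma around them both make these enzymes, and RNA levels report neither activation nor inhibition of the protein.

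Of the 89 genes, 42 reached 1 cpm in at least 3 libraries and were tested, 47 did not, and 17 of the 47 had no count in any library. The tested genes were 8 MMPs, 13 ADAMs, 9 ADAMTSs, 2 TIMPs and the 10 remaining listed genes. At an adjusted p under 0.05 (edgeR quasi-likelihood test, Benjamini-Hochberg adjusted over all 13166 tested genes), 30 of the 42 were called, which is 71.4%, beside 42.1% of all tested genes. Of the 30, 16 were higher in METTL7A1 cells (background 21.1%) and 14 were lower (background 21.0%). The difference in share was not tested, and the set was chosen with earlier results of these data known. Both directions were thus populated, and the median log2 fold change of the 42 was -0.0039, beside -0.03 for all tested genes. The median size of the change, whatever its sign, was 0.46 against 0.25 for all tested genes. With the thresholds of the study (adjusted p under 0.01 and a log2 fold change over 1.5), 7 genes were called, or 16.7%, beside 2.48% of all tested genes. These were Adam22, Adamts4, Plat and Mmp13 as higher and Adam18, Adamts9 and Serpinb2 as lower. The 3 METTL7A1 libraries all lay above or all below the 3 mock libraries for 33 of the 42 (17 above and 16 below), with a background of 51.6%. Of the 42, Adam22 passed the abundance filter only through METTL7A1 libraries and Adam18 and Adamts9 only through mock libraries, and a gene of this kind had to differ to be tested. Such genes made up 2.01% of all tested genes.

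**Figure D1:**
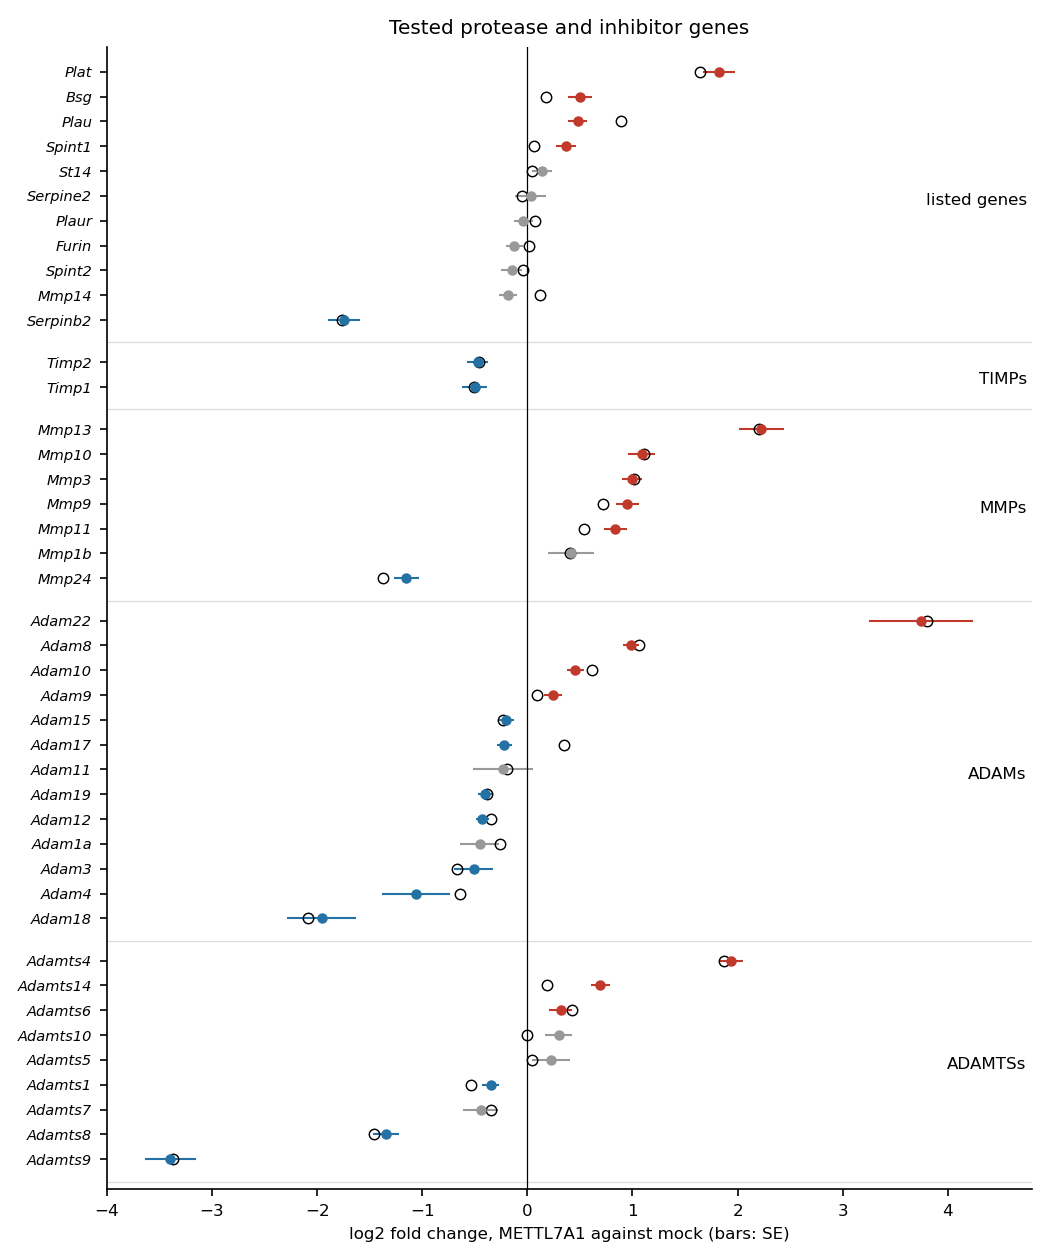
Log2 fold change (METTL7A1 against mock, 3 libraries each) of the 42 tested protease and inhibitor genes, in families, with bars for the standard error. Filled red points are called as higher, blue as lower and grey not called at an adjusted p under 0.05, and open circles give the log2 fold change less the median of the 40 nearest abundant genes on the chromosome. Mmp14 is drawn with the listed genes. Among the other MMPs 5 points are red, and both TIMP points are blue, while the ADAM and ADAMTS points lie on both sides of 0. The open circles of Adam17, Mmp14, Furin, Plaur, Serpine2 and Adamts10 lie on the other side of 0 from their points, and of these only Adam17 is called.

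The plasminogen activation genes moved in different directions. Plau (urokinase, chr14:20836662-20843388 in mm10), which turns plasminogen into plasmin at the cell surface, had 363, 419 and 419 cpm in METTL7A1 replicates 1, 2 and 3 and 291, 307 and 264 cpm in mock replicates 1, 2 and 3. Hereafter values for the METTL7A1 and mock groups are given in this order of replicates. Every METTL7A1 library lay above every mock library, with means of 400.3 ± 32.2 against 288 ± 21.9 cpm (SD, n = 3) and a log2 fold change of 0.48 ± 0.09 by edgeR (adjusted p = 0.00141). Log2 fold changes are given with their standard error (SE) in the same way throughout. Plaur, the urokinase receptor (chr7:24462484-24475967), stood at 77.7, 90.7 and 89.8 cpm in METTL7A1 and 93.3, 94.5 and 77.7 cpm in mock libraries. The groups overlapped and Plaur was not called (log2 fold change -0.04 ± 0.09, edgeR adjusted p = 0.773).

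Plat, the tissue-type activator (chr8:22757747-22782844), was the scarcer of the 2 activators and differed more. Its levels were 12, 12.5 and 11.8 cpm in METTL7A1 and 2.68, 4.09 and 3.42 cpm in mock libraries, and the lowest METTL7A1 library was well above the highest mock library. The means of 12.1 ± 0.381 against 3.4 ± 0.704 cpm gave a log2 fold change of 1.82 ± 0.15 by edgeR (adjusted p = 6.49e-06). Of the serpins in the set that inhibit both activators, 1 was called and 1 was not. Serpinb2 (PAI-2, chr1:107511423-107525598) was at 3.29, 4.3 and 4.99 cpm in METTL7A1 and 14.6, 15.2 and 12.8 cpm in mock libraries, with every METTL7A1 library below every mock library and a log2 fold change of -1.74 ± 0.15 by edgeR (adjusted p = 8.9e-06). Serpine2 (protease nexin-1, chr1:79794197-79858696) was at 5.66, 6.94 and 7.79 cpm in METTL7A1 and 6.07, 7.34 and 6.6 cpm in mock libraries, and the overlapping groups gave a log2 fold change of 0.03 ± 0.15 by edgeR (adjusted p = 0.893). Plg, the substrate of both activators, had at most 1 count in any library, so that plasminogen RNA was not detectable in these cells at this depth.

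Matriptase (St14, chr9:31089402-31131853), a membrane serine protease of epithelial cells, stood at 229, 259.8 and 249 cpm in METTL7A1 and 240.3, 238 and 193 cpm in mock libraries. METTL7A1 replicate 1 fell between mock libraries, and St14 was not called (log2 fold change 0.14 ± 0.10, edgeR adjusted p = 0.278). Its inhibitor Spint1 (HAI-1, chr2:119237362-119249527) had levels of 106, 124 and 126 cpm in METTL7A1 and 101, 94.2 and 81.4 cpm in mock libraries, all METTL7A1 libraries above the mock ones, with a log2 fold change of 0.37 ± 0.09 by edgeR (adjusted p = 0.00856). The second inhibitor, Spint2 (HAI-2, chr7:29256341-29281912), had 92.2, 115 and 118 cpm in METTL7A1 and 121, 129 and 112 cpm in mock libraries in overlapping groups and was not called (log2 fold change -0.15 ± 0.10, edgeR adjusted p = 0.24).

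Of the genes listed for their link to MMP activation, Bsg was called and Furin and Mmp14 were not. Furin (chr7:80389194-80405431), the convertase that removes the prodomain of membrane-type MMPs and many ADAMs, had 89.5, 105 and 103 cpm in METTL7A1 and 113, 111 and 101 cpm in mock libraries, in overlapping groups, with a log2 fold change of -0.12 ± 0.08 by edgeR (adjusted p = 0.243). Mmp14 (chr14:54431612-54441265), the membrane-type enzyme that activates MMP2 and a control mRNA in the polysome assays of the study, had 125, 143 and 145 cpm in METTL7A1 and 161, 165 and 144 cpm in mock libraries. Only mock replicate 3 reached into the METTL7A1 range, and Mmp14 was not called (log2 fold change -0.18 ± 0.08, edgeR adjusted p = 0.0953). Without that library it was called as lower, with a log2 fold change of -0.23 and an edgeR adjusted p of 0.0376. Relative to its chromosome neighbours, whose median was -0.31, its sign turned and it was not called (0.12, edgeR adjusted p = 0.287). Mmp2, its substrate, had at most 2 counts in any library. Bsg (basigin or EMMPRIN, chr10:79704491-79711969), a membrane glycoprotein known as an inducer of MMPs in neighbouring cells, had 259.6, 302 and 336 cpm in METTL7A1 and 219.6, 233 and 181 cpm in mock libraries. Its METTL7A1 libraries all lay above the mock ones, with a log2 fold change of 0.50 ± 0.11 by edgeR (adjusted p = 0.00449). Both Bsg and Spint1 lay in stretches of chromosome whose abundant genes were higher in METTL7A1 cells, with neighbour medians of 0.32 and 0.30. Relative to these medians their log2 fold changes were 0.18 (edgeR adjusted p = 0.256) and 0.07 (adjusted p = 0.633), and neither was called. For Plau, whose neighbours had a median of -0.41, the change relative to them was 0.89 (edgeR adjusted p = 2.71e-05).

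Of the 4 TIMP genes, 2 were expressed and both were called as lower in METTL7A1 cells, beside 21.0% of all tested genes. Timp1 (chrX:20870166-20874735), which inhibits most secreted MMPs, was at 21.9, 26.4 and 31.6 cpm in METTL7A1 and 37.9, 39.9 and 35.9 cpm in mock libraries. Timp2 (chr11:118301069-118355506), which inhibits MMPs and also bridges MMP14 to its substrate proMMP2, was at 143, 169.7 and 189 cpm in METTL7A1 and 231, 247 and 219 cpm in mock libraries. For both genes the highest METTL7A1 library lay below the lowest mock library. Timp1 had a log2 fold change of -0.50 ± 0.12 by edgeR (adjusted p = 0.00495), and the value of Timp2 was close to it (log2 fold change -0.47 ± 0.10, edgeR adjusted p = 0.00307). Timp3, the inhibitor of several ADAMs, had at most 2 counts in any library, and Timp4 had none.

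The MMPs were mostly higher. Of 8 tested, 5 were called as higher, 1 as lower and 2 were not called. That is 75% called, beside 42.1% of all tested genes (21.1% higher and 21.0% lower). The median log2 fold change was 0.89 beside the -0.03 of all tested genes. Mmp9 (gelatinase B, chr2:164948219-164955850), which degrades basement membrane collagen, stood at 808, 858 and 744 cpm in METTL7A1 and 461, 437 and 348 cpm in mock libraries. All METTL7A1 libraries exceeded all mock libraries, with means of 804 ± 57.3 against 416 ± 59.4 cpm and a log2 fold change of 0.95 ± 0.11 by edgeR (adjusted p = 6.37e-05). Per kilobase of exon, Mmp9 had the highest mean level within the set in METTL7A1 cells, at 253 cpm per kb. In mock cells it stood at 131 ± 18.7 cpm per kb (SD, n = 3), within the spread of Bsg (126 ± 16.1) and Plau (123 ± 9.36). It made up 60.2% ± 2.23 (SD, n = 3) of the summed MMP level per kb in mock and 71.7% ± 2.07 in METTL7A1 cells, values in which the other MMPs enter as the remainder.

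**Figure D2:**
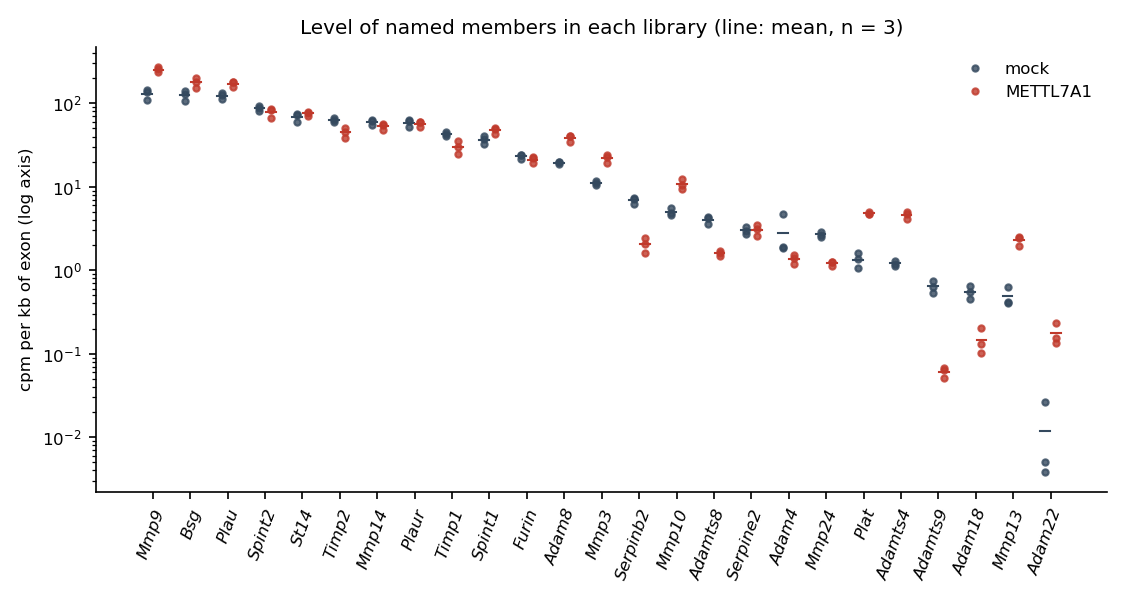
Level of the named proteases and inhibitors in each library, in cpm per kilobase of exon on a log axis, ordered by the mock mean, with blue points for mock, red points for METTL7A1 and a line for each mean (n = 3). Mmp9 has the highest mean in both groups, close to Bsg and Plau in mock, and Adam22 at the bottom in mock, where 1 of its 3 libraries lies well above the others.

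Mmp11 (stromelysin-3) rose as well (log2 fold change 0.84 ± 0.11, edgeR adjusted p = 0.000157). In the other direction, Mmp24 (MT5-MMP, chr2:155775342-155818366), a membrane-type enzyme best known from neurons, was at 5.39, 4.84 and 5.47 cpm in METTL7A1 and 11.5, 12.5 and 10.8 cpm in mock libraries, with all METTL7A1 libraries below the mock ones and a log2 fold change of -1.15 ± 0.12 by edgeR (adjusted p = 3.55e-05). Its exons overlap those of BC029722 on the opposite strand, which had up to 1250 counts in a library, and the strand setting of the counting is not stated.

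The remaining expressed MMPs belong to the cluster of 10 Mmp genes on chromosome 9, between positions 7272514 and 7699585, which holds the collagenases, stromelysins and matrilysin. Of the 10, 4 were tested (Mmp13, Mmp1b, Mmp3 and Mmp10) and 3 had no count in any library (Mmp8, Mmp27 and Mmp7). The stretch of 120 bases before the start of 6 of these genes is shown, since each holds both of the motifs searched for while the RNA of the genes ranged from called as higher to not detected. The sequences are from RefSeq on GRCm38.p6, written 5′ to 3′ on the strand of the gene, and capitals mark the AP-1 motif TGAGTCA (or its reverse complement TGACTCA) and the TATA motif TATAAA, the latter searched on the strand of the gene alone.

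Mmp13 (chr9:7272394-7272513, plus strand): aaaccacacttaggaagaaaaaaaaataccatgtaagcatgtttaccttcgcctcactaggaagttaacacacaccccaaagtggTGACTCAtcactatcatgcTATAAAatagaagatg

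Mmp1b (chr9:7388027-7388146, minus strand): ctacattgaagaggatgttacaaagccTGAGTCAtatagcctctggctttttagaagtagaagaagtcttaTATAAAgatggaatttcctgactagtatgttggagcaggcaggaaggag

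Mmp3 (chr9:7445702-7445821, plus strand): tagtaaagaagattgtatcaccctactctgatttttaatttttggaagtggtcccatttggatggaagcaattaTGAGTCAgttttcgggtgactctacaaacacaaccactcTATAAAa

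Mmp1a (chr9:7464021-7464140, plus strand): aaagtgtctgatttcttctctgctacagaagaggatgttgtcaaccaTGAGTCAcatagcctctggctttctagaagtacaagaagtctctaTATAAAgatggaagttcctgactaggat

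Mmp10 (chr9:7502222-7502341, plus strand): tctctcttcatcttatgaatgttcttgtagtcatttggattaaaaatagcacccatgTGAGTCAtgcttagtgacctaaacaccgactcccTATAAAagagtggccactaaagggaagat

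Mmp7 (chr9:7691970-7692089, plus strand): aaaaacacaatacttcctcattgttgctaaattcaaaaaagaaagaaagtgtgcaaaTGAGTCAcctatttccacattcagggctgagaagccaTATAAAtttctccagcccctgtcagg

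AP-1, a dimer of Fos and Jun proteins, is a known regulator of collagenase and stromelysin genes, and the TATA motif marks where transcription is set to begin. The first base of the AP-1 motif lay 35 bases before the start for Mmp13, 46 for Mmp3 and 63 for both Mmp10 and Mmp7. It lay 73 bases before the start for Mmp1a and 93 for Mmp1b. For the TATA motif the distance was 7 bases for Mmp3, 16 for Mmp13, 26 for Mmp7, 28 for Mmp1a, 29 for Mmp10 and 49 for Mmp1b. All distances rest on the annotated start of each gene. A second promoter of Mmp7, not shown, held neither motif. Within 250 bases before the start, the AP-1 motif stood in 4.46% of 32851 RefSeq promoters, the TATA motif in 7.59%, and both in 0.481%. Promoters were found for 25 of the 42 tested genes, as 29 promoters. Of the 29, 6 held the AP-1 motif (20.7%), 8 the TATA motif (27.6%) and 4 both (13.8%), and the 4 are those of Mmp13, Mmp1b, Mmp3 and Mmp10. A match is a run of letters, and binding was not measured here.

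Mmp13 (collagenase-3, chr9:7272514-7283333) showed the largest change of the cluster among tested genes. Its levels were 5.17, 6.64 and 6.57 cpm in METTL7A1 and 1.09, 1.11 and 1.69 cpm in mock libraries, and the lowest METTL7A1 library exceeded the highest mock library more than 3-fold, with a fitted difference of 4.67-fold (log2 fold change 2.22 ± 0.21, edgeR adjusted p = 1.76e-05). Mmp3 (stromelysin-1, chr9:7445822-7455972), which also activates other MMPs, was at 34.6, 43.8 and 41.2 cpm in METTL7A1 and 20.1, 21.2 and 18.9 cpm in mock libraries and gave a log2 fold change of 0.99 ± 0.10 by edgeR (adjusted p = 2.09e-05). Mmp10 (stromelysin-2, chr9:7502352-7510238) was at 16, 21.1 and 18 cpm in METTL7A1 and 8.36, 9.66 and 7.97 cpm in mock libraries and gave a log2 fold change of 1.09 ± 0.13 by edgeR (adjusted p = 6.37e-05). In both stromelysins all METTL7A1 libraries lay above all mock libraries. Mmp1b, 1 of the 2 mouse copies of interstitial collagenase, was at 2.37, 2.07 and 1.82 cpm in METTL7A1 and 1.42, 1.4 and 1.81 cpm in mock libraries. Its groups touched without overlapping, it was not called (log2 fold change 0.42 ± 0.22, edgeR adjusted p = 0.15), and reads may be split between Mmp1b and its close copy Mmp1a.

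Mmp1a itself was under the filter, with 6, 6 and 16 counts in METTL7A1 and 9, 11 and 7 counts in mock libraries. Mmp12 (macrophage elastase) was under the filter too, with 10, 12 and 8 counts against 1 count in each mock library. Its exons overlap those of Mmp1b on the opposite strand, which had up to 61 counts in a library. Mmp7, whose promoter shown above holds both motifs, had no count in any library. The abundant genes around the cluster had median log2 fold changes of 0.02 at Mmp13 and -0.02 at Mmp10, beside the changes of Mmp13, Mmp3 and Mmp10, the 3 genes of the cluster that were called.

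**Figure D3:**
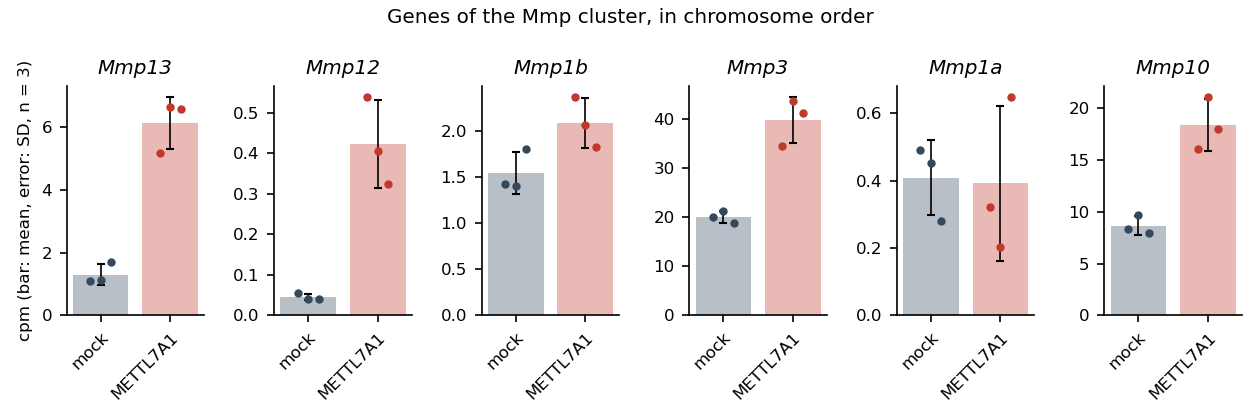
Levels in cpm of the 6 genes of the chromosome 9 cluster that had at least 10 counts in a library, in chromosome order, with a point for each library, bars for means and error bars for the SD (n = 3). Each panel has its own axis from 0, and Mmp12 and Mmp1a were under the abundance filter. The METTL7A1 points of Mmp13, Mmp3 and Mmp10 all lie above the mock points, while those of Mmp1a overlap.

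Since Mmp9, Mmp12 and Adam8 are also made by macrophages, leukocyte markers were read beside them. The 5 markers Ptprc, Adgre1, Cd68, Csf1r and Lyz2 summed to 14.1 to 16.5 cpm in METTL7A1 and 5.85 to 6.76 cpm in mock libraries. Cd68 (mean 12.8 against 5.43 cpm) and Csf1r (2.41 against 0.764 cpm) made up nearly all of this sum and both were called as higher, although Csf1r passed the filter only through METTL7A1 libraries and so had to be higher to be tested. The defining markers Ptprc, Adgre1 and Lyz2 reached no more than 8, 1 and 2 counts in a library. Fibroblast markers (Col1a1, Col1a2, Dcn, Lum and Pdgfra) summed to 23.9 to 26.6 cpm in METTL7A1 and 17.4 to 19.8 cpm in mock libraries, mostly from Pdgfra, while Lum had no count and Col1a1 had at most 22. Endothelial markers (Pecam1, Cdh5 and Kdr) summed to under 1 cpm in every library. The part of these markers in the protease results was not tested, and in bulk RNA fewer cells that express a gene and less RNA per cell cannot be told apart.

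The ADAM family split in both directions, with 4 of 13 tested genes called as higher, 7 as lower and 2 not called. That is 84.6% called, beside 42.1% of all tested genes, and the median log2 fold change was -0.23. Adam8 (chr7:139978932-139992562), a membrane sheddase, was at 126, 126 and 109 cpm in METTL7A1 and 62, 61.8 and 58.2 cpm in mock libraries. The groups were far apart relative to their spread, with means of 120.1 ± 9.92 against 60.7 ± 2.13 cpm and a log2 fold change of 0.99 ± 0.08 by edgeR (adjusted p = 3.84e-06). Adam10, the sheddase of Notch receptors and E-cadherin, rose by less (log2 fold change 0.45 ± 0.08, edgeR adjusted p = 0.00105), and so did Adam9 (log2 fold change 0.25 ± 0.08, edgeR adjusted p = 0.0358). The call of Adam9 was lost without METTL7A1 replicate 2 or 3 or mock replicate 1 or 3 (edgeR adjusted p from 0.0567 to 0.131). It was lost with the replicate block too (edgeR adjusted p = 0.0686). Relative to its chromosome neighbours the change of Adam9 was 0.09 (edgeR adjusted p = 0.469).

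Adam17, the sheddase of TNF and of many EGF receptor ligands, was called as lower by a small margin (log2 fold change -0.22 ± 0.07, edgeR adjusted p = 0.0303). Its neighbours on the chromosome had a median of -0.56, the lowest around any tested gene of the set, and relative to them Adam17 was higher, by 0.34 (edgeR adjusted p = 0.00404), so that its direction depended on this setting. The membrane ADAMs Adam12 (log2 fold change -0.43 ± 0.06, edgeR adjusted p = 0.000324), Adam19 (log2 fold change -0.40 ± 0.07, edgeR adjusted p = 0.000679) and Adam15 (log2 fold change -0.20 ± 0.07, edgeR adjusted p = 0.0476) were lower by less than 0.5 on the log2 scale. The calls of Adam15 and Adam17 were lost on leaving out any library but mock replicate 3, with edgeR adjusted p values from 0.0722 to 0.223 and from 0.0558 to 0.101. Both calls were also lost with no abundance filter and with the replicate block. Adam15 lost its call in 11 of 15 settings, among them DESeq2 (adjusted p = 0.0593) and limma voom (adjusted p = 0.056). Adam11 (log2 fold change -0.23 ± 0.29, edgeR adjusted p = 0.554), with overlapping groups, and Adam1a (log2 fold change -0.45 ± 0.19, edgeR adjusted p = 0.0699), whose METTL7A1 libraries all lay below the mock ones, were not called. Without METTL7A1 replicate 1, Adam1a was called, at -0.56 with an edgeR adjusted p of 0.0484. Exons of Adam1a overlap those of Gm42878 on the same strand, which had up to 113 counts in a library.

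Adam22 (chr5:8072352-8368081), a receptor for LGI proteins with no protease activity of its own, had 47, 43 and 41 counts in METTL7A1 libraries and 1, 1 and 7 counts in mock libraries. The groups were separate, with a log2 fold change of 3.74 ± 0.49 by edgeR (adjusted p = 0.000148), but with so few mock counts the fitted value depends on the prior count, and without mock replicate 3 it was 5.14. The ADAMs known for their roles in sperm were scarce. Adam18 (chr8:24602246-24674755) had 9, 9 and 6 counts against 24, 26 and 38 in mock libraries, with a log2 fold change of -1.96 ± 0.33 by edgeR (adjusted p = 0.000744). Adam4 (chr12:81419443-81421946) had 70, 88 and 87 counts against 86, 112 and 292 in mock, so that mock replicate 3 stood far above all other libraries.

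The call of Adam4 as lower (log2 fold change -1.06 ± 0.33, edgeR adjusted p = 0.0226) rested on that library, since without it the log2 fold change was -0.45 with an edgeR adjusted p of 0.058. It was also lost without METTL7A1 replicate 2, at -0.97 with an adjusted p of 0.0946, and relative to its chromosome neighbours, at -0.64 (edgeR adjusted p = 0.16). Adam3 (104, 158 and 117 counts against 119, 146 and 242) showed the same high value in mock replicate 3 (log2 fold change -0.51 ± 0.19, edgeR adjusted p = 0.0472) and was at -0.25 with an edgeR adjusted p of 0.198 without it. Its call was lost as well without any 1 of the METTL7A1 libraries or mock replicate 1, with edgeR adjusted p values from 0.0661 to 0.132. Adam3 lost its call in 10 of 15 settings, among them RLE scaling (edgeR adjusted p = 0.0538) and limma voom (adjusted p = 0.0543). Mock replicate 3 was also the highest library for Adam18, for Adam21 (14, 25 and 10 counts against 19, 21 and 54) and for Adam32 (20, 10 and 19 against 11, 10 and 34), the latter pair not tested. What set this library apart for these genes was not tested.

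Among the ADAMTS proteases, 3 of 9 tested genes were called as higher, 3 as lower and 3 were not called. That is 66.7% called, beside 42.1% of all tested genes. Adamts4 (chr1:171250421-171260637), an aggrecanase, was at 23, 23.9 and 19.7 cpm in METTL7A1 and 6.23, 5.78 and 5.47 cpm in mock libraries, a fitted difference of 3.82-fold, that is a log2 fold change of 1.93 ± 0.11 by edgeR (adjusted p = 5.86e-07). Adamts9 (chr6:92772699-92943492), which cleaves versican and aggrecan, had 10, 15 and 10 counts in METTL7A1 and 109, 105 and 127 counts in mock libraries, with means of 0.484 ± 0.0698 against 5.13 ± 0.813 cpm and a log2 fold change of -3.39 ± 0.24 by edgeR (adjusted p = 1.88e-06). It was the largest fall among the tested genes of the set. Adamts8 (chr9:30942562-30962856), an ADAMTS protease with antiangiogenic activity, was at 6.14, 5.82 and 5.35 cpm in METTL7A1 and 15.9, 15.1 and 13 cpm in mock libraries, and gave a log2 fold change of -1.35 ± 0.12 by edgeR (adjusted p = 1.21e-05). In these 3 genes the 2 groups did not overlap.

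Adamts14, a procollagen N-proteinase, was called as higher (log2 fold change 0.69 ± 0.09, edgeR adjusted p = 0.000147), with a change relative to its chromosome neighbours of 0.19 (edgeR adjusted p = 0.14). Adamts6 was higher by less (log2 fold change 0.32 ± 0.11, edgeR adjusted p = 0.0347). Its groups overlapped, with METTL7A1 replicate 3 at 45.4 cpm and mock replicate 3 at 45.7 cpm. The call was lost without METTL7A1 replicate 1 or 2 or mock replicate 1 or 2 (edgeR adjusted p from 0.077 to 0.126). It was also lost with upper quartile scaling (edgeR adjusted p = 0.0576) and the replicate block (edgeR adjusted p = 0.0537). Adamts1, an aggrecanase and versicanase and the most abundant ADAMTS per kb, was lower (log2 fold change -0.35 ± 0.08, edgeR adjusted p = 0.00504), and its share of the summed ADAMTS level per kb was 66.9% ± 2.04 (SD, n = 3) in mock and 55.9% ± 0.735 in METTL7A1 cells. Adamts5 (log2 fold change 0.23 ± 0.18, edgeR adjusted p = 0.335), Adamts7 (log2 fold change -0.44 ± 0.17, edgeR adjusted p = 0.0522) and Adamts10 (log2 fold change 0.30 ± 0.13, edgeR adjusted p = 0.0821) were not called, and the groups overlapped for Adamts10 alone of these. Adamts7 was called without mock replicate 3 (-0.51, edgeR adjusted p = 0.0335) and Adamts10 without mock replicate 1 (0.41, edgeR adjusted p = 0.0471). Exons of Adamts7 overlap those of Tbc1d2b on the opposite strand, which had up to 522 counts in a library.

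Of the 47 genes that were not tested, 17 had no count, 17 reached 1 to 3 counts in their highest library and 13 reached more, up to 54. The 13 were Mmp12, Mmp15, Mmp17, Mmp19, Mmp1a, Mmp23, Mmp25 and Mmp28, the ADAMs Adam21, Adam30, Adam32 and Adam33, and Adamts17. The 17 without a count included 9 ADAMs, most of them known from testis, 4 MMPs, 3 ADAMTSs and Timp4.

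Ratios of partner genes within a library do not depend on library scaling, and 6 pairs were compared. The log2 ratio of Plau to Plaur was 2.23, 2.21 and 2.22 in METTL7A1 and 1.64, 1.70 and 1.76 in mock libraries, a difference of 0.51 towards the protease. Plau to Serpine2 differed by 0.46 (5.89 ± 0.13 against 5.43 ± 0.14, SD, n = 3). St14 to Spint2 differed by 0.30 (1.19 ± 0.12 against 0.89 ± 0.10), whereas St14 to Spint1 differed by -0.23 (1.05 ± 0.06 against 1.28 ± 0.05). The log2 ratio of Mmp14 to Timp2 was -0.19, -0.25 and -0.38 in METTL7A1 and -0.52, -0.58 and -0.60 in mock libraries, a difference of 0.29 (-0.27 ± 0.10 against -0.57 ± 0.04). Furin to Mmp14 differed by 0.06. In all 6 pairs the groups did not overlap, for Furin to Mmp14 only narrowly (nearest libraries -0.503 in METTL7A1 and -0.509 in mock). The share of other gene pairs without overlap was not computed, and among single tested genes it was 51.6%. Plau, St14 and Mmp14 each enter more than 1 pair, so that the pairs are not separate observations. The exact two-sided permutation test gave p = 0.1 for each pair (Benjamini-Hochberg adjusted 0.1). That is the smallest that 3 against 3 libraries allow, so that none could pass 0.05. The pair Adam17 to Timp3 was not computed, since Timp3 had at most 2 counts.

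**Figure D4:**
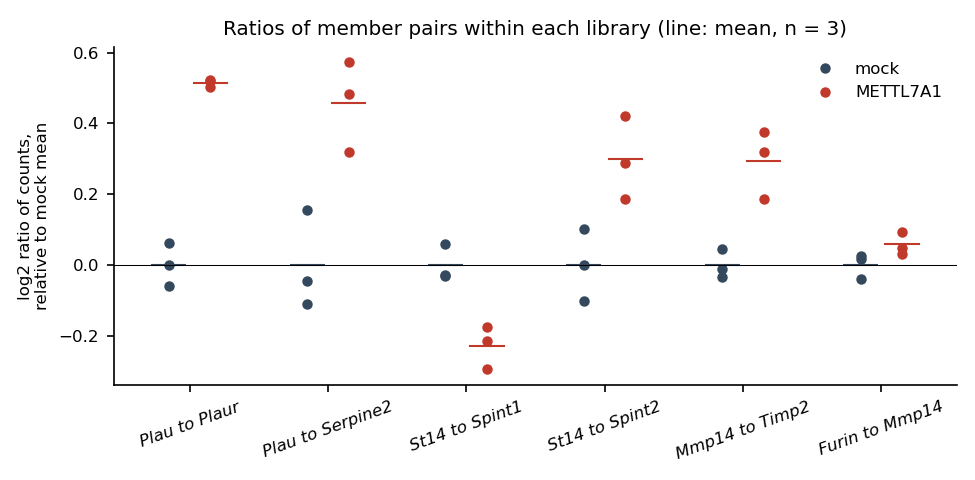
Log2 ratio of the counts of 6 pairs of genes in each library, less the mock mean of the pair, with blue points for mock, red points for METTL7A1 and a line for each mean (n = 3). The METTL7A1 points lie above the mock points in 5 pairs and below them for St14 to Spint1, with the widest separation for Plau to Plaur.

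Of 82 genes of the same pathways that are not in the set, 53 were tested, 15 were called as higher, 12 as lower and 26 were not called, which is 50.9% called beside 42.1% of all tested genes, with a median log2 fold change of 0.09. Lrp1, the endocytic receptor that clears MMP9, protease-inhibitor complexes and several ADAMTSs, had a mean of 529.7 ± 54.4 against 114 ± 10.3 cpm and a log2 fold change of 2.21 ± 0.10 by edgeR (adjusted p = 8.86e-08). Its neighbours were higher too, and the change relative to them was 1.68. Reck, a membrane-anchored MMP inhibitor, was higher (log2 fold change 0.87 ± 0.20, edgeR adjusted p = 0.00544), whereas Hspg2 (perlecan), a basement membrane proteoglycan, was not called (log2 fold change -0.25 ± 0.11, edgeR adjusted p = 0.0891). Hspg2 was called as lower without METTL7A1 replicate 1 or mock replicate 3 (edgeR adjusted p = 0.0343 and 0.0246).

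Of 13 tested serpins and plasminogen genes, 3 were higher, 2 lower and 8 not called. The share called was below the 42.1% of all tested genes, a difference that was not tested. Serpinb5 (maspin) was the only 1 of the 13 past 1 on the log2 scale (log2 fold change 1.05 ± 0.19, edgeR adjusted p = 0.00108). Of 6 membrane serine proteases and HGF axis genes 2 were higher and 1 lower (50% called), led by Prss22 (log2 fold change 1.13 ± 0.10, edgeR adjusted p = 1.01e-05). Of 17 metalloprotease regulators 5 were higher and 5 lower (58.8% called). These included the ADAMTS-like Papln (log2 fold change -1.79 ± 0.37, edgeR adjusted p = 0.00277) and Adamtsl3 (log2 fold change -1.12 ± 0.11, edgeR adjusted p = 2.43e-05) as lower, and the 2 iRhoms that carry ADAM17 to the surface in opposite directions, Rhbdf1 lower (log2 fold change -0.50 ± 0.09, edgeR adjusted p = 0.00161) and Rhbdf2 higher (log2 fold change 0.88 ± 0.07, edgeR adjusted p = 4.51e-06). Papln passed the abundance filter only through mock libraries and so had to be lower to be tested, and without METTL7A1 replicate 2 its value was -2.59. Of 4 tested EGF ligands shed by ADAMs (75% called) 1 was higher and 2 were lower, namely Btc (log2 fold change -1.26 ± 0.18, edgeR adjusted p = 0.000257) and Areg (log2 fold change -1.02 ± 0.12, edgeR adjusted p = 8.53e-05). Of 9 cathepsins and cystatins 4 were higher and 1 lower (55.6% called), and of 4 proprotein convertases 1 was lower (25% called).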

How the data were processed

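Total RNA of 3 METTL7A1 and 3 mock libraries was depleted of ribosomal RNA, made into stranded libraries and sequenced. The authors trimmed reads with BBDuk, aligned them to mm10 with STAR and deposited raw counts per gene from featureCounts on an Ensembl annotation; strand and multimapping settings are not given in the sources used here. Per the file headers, the deposited exon length of each gene was used for levels per kilobase. All count columns belonged to these 6 libraries.

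The abundance filter of the study (1 cpm or more in 3 or more libraries) was applied in edgeR 4.0.16 under R 4.3.3. Libraries were scaled by TMM, and METTL7A1 was compared with mock by the quasi-likelihood test with no covariate, p values being Benjamini-Hochberg adjusted over all 13166 tested genes. The code was tested on simulated data. SE is that of the log2 fold change, and cpm are on TMM-scaled library sizes. A neighbour median was taken over the log2 fold changes of 40 genes nearest on the chromosome with an abundance over 2 on the log2 cpm scale.

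Members and gene lists were chosen with earlier results of these data known. Values were given for the 11 listed genes, for tested Timp genes and for up to 12 further called members with a log2 fold change of at least 0.5 in size; other members are given by counts, ranges and examples. Related genes were named when called with a log2 fold change of at least 1 in size, and Reck, Lrp1 and Hspg2 in any case, while 1 further gene of this rule is not reported here; Rhbdf1 and Rhbdf2 and the members and markers named outside this rule were added with their values known. Alternatives were RLE and upper quartile scaling, other filters, removal of the 20 most abundant genes, a replicate block, DESeq2 1.42.0, limma 3.58.1 voom, the neighbour offset, a linear fold threshold and leaving out each library. Replicates are labelled as separate samples, and the paper describes them as biological triplicates. It does not state whether they were separate cultures or lines, so that p values measure the spread between these libraries. Promoters were matched by symbol to a RefSeq table for 55 of the 89 members.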

Additional observations from a re-analysis of the deposited data

How the results depend on the processing

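Called members numbered 30; they were 29 with RLE scaling, 28 with upper quartile scaling, 31 of 72 with no abundance filter, 27 with at least 10 counts in every library, 28 without the 20 most abundant genes, 29 with DESeq2, 28 with limma voom and 25 with the neighbour offset, and lay between 23 and 27 when a library was left out. Of the 30, 21 kept their call wherever they were tested and 9 lost it at least once (Adam3, Adam4, Adam9, Adam15, Adam17, Adamts6, Adamts14, Bsg and Spint1). The 21 include Adam22, Adam18 and Adamts9, which were tested in 11, 11 and 12 of the 15 settings. Where they were not tested, these genes could not lose their call. Of the 12 not called, 4 gained a call at least once (Mmp14, Adam1a, Adamts7 and Adamts10). The 7 members past the study thresholds became 15 (10 higher and 5 lower) when 1.5 was read as a linear fold change. They were 5 or 6 when a library was left out, since Adam22, or Adam18 and Adamts9, then failed the abundance filter. Shares of all tested genes are given for the main fit alone, so that counts under the other settings have no background beside them. Adam17 was the only called member whose sign turned, at 0.34 with the neighbour offset; the cause was not tested. Of the members not called, Mmp14, Furin, Plaur, Serpine2 and Adamts10 changed sign with the same offset. Same-numbered libraries did not deviate together (correlations -0.16, 0.23 and -0.39), so that the numbers do not pair them. Across numbers, METTL7A1 replicate 1 correlated at 0.50 with mock replicate 3 and at -0.51 with mock replicate 2. Deviations can thus be shared between the groups, and their source was not tested. With the replicate block 25 members were called (14 higher and 11 lower). The differences of the 6 ratios kept their sign without any 1 library. Related genes called numbered 27 and lay between 24 and 35 when a library was left out. Members under about 1 cpm, such as Mmp12, Mmp28 and most sperm ADAMs, rest on few counts, which limits any statement on them.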

Other observations

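Some members under the abundance filter had counts that differed between the groups. With no abundance filter, 72 members were tested and Mmp12, Mmp28 and Adam21 were among those called. Mmp12 (macrophage elastase), with 10, 12 and 8 counts in METTL7A1 and 1 count in each mock library, had a log2 fold change of 3.11 ± 0.75 by edgeR (SE, adjusted p = 0.000376), a value that depends on the prior count. Its exons overlap those of the more abundant Mmp1b on the opposite strand, and the strand setting of the counting is not stated. Mmp28 (epilysin), with 12, 15 and 8 counts against 2, 6 and 4, was at 1.46 ± 0.54 (SE, edgeR, adjusted p = 0.035), and its groups did not overlap. Adam21 was at -0.997 ± 0.319 (SE, edgeR, adjusted p = 0.011), with every METTL7A1 library just below the mock libraries in cpm and its highest count, 54, in mock replicate 3. Neighbour medians of the log2 fold change were beyond 0.25 in size for 9 of the 42 tested members and for 2442 of all 13166 tested genes.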
